A study of Mus musculus with 12 samples.

Results

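DNA replication genes are described here as the rows of both count tables whose symbol is on a list of 43 genes for origin licensing, the MCM helicase and its activation, the replicative polymerases, the sliding clamp and its loader, replication protein A, deoxynucleotide synthesis and Okazaki fragment processing. All 43 were found among the 24538 gene symbols of the tables, and all 43 passed the filter on low counts in each of the 12 comparisons. RNA came from bone marrow of mice aged 10 weeks on a mixed 129/C57/B6 background that were wild type (WT), Tet2 knockout (KO) or Tet2 mutant (Mut), with no treatment given in the labels. The cells were LSK, the lineage-negative marrow fraction positive for Sca-1 and Kit that holds the blood stem cells, and a population whose descriptions say MPP (multipotent progenitor) and whose titles say Lin. Marrow of 2 mice was pooled for each genotype, and the pool gave 2 technical libraries per population, so that 12 libraries form 6 groups of 2. The p-values below therefore measure the spread between libraries of a pool, not between mice. Tet2 encodes a dioxygenase acting on methylated cytosine in DNA. The series title names functions of Tet2 beyond its enzyme activity. The deleted part of the gene in KO, the residues altered in Mut and the sorting gates are not given in the sources used here.

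Before a cell copies its DNA, the origin recognition complex, Cdc6 and Cdt1 load the MCM helicase onto origins, a step called licensing. At the start of S phase Cdc45 and the GINS complex switch the loaded helicase on, polymerase alpha with primase lays primers, and polymerases delta and epsilon extend them with the clamp PCNA. Many of these genes are transcribed through E2F factors as cells leave the resting state. Stem cells of the marrow are known to divide rarely, and the progenitors that descend from them divide often.

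Gene counts per library ran from 9181027 to 23532847, and the limit that 0 counts sets was 0.127 to 0.327 CPM (counts scaled by library size, with TMM scaling factors throughout). The LSK WT libraries stood apart: the log2 CPM of the 43 genes correlated at r = 0.858 between the libraries of LSK WT, across genes, against 0.973 to 0.981 in the other 5 groups. The median gap of a gene between the libraries of a group was 0.48 on the log2 scale in LSK WT and 0.13 to 0.19 elsewhere. Rn45s, the ribosomal RNA precursor, took 3.65% and 3.70% of counts in LSK WT, 2.47% and 2.51% in LSK KO, and 0.873% to 1.10% in the other 8 libraries. Spike-in RNAs took 0.0822% to 0.229% of counts in LSK libraries and 3.16% to 5.15% in MPP libraries, and their makeup differed too, with ERCC-00130 making up 18.6% (LSK WT) and 17.2% (MPP WT) of them and 2.67% to 3.75% in the other groups. Tet2 itself was at 75.0 ± 17.4, 30.5 ± 1.82 and 43.9 ± 0.639 CPM in LSK WT, KO and Mut, and at 34.5 ± 7.22, 34.9 ± 0.00964 and 38.8 ± 1.97 CPM in MPP WT, KO and Mut (SD, n = 2). KO against WT was not called for Tet2 in LSK (log2 difference -1.32, edgeR adjusted p = 0.207) or in MPP (0.01, adjusted p = 0.999). Because the altered part of the gene is not given, these gene counts do not check the labels, and WT, KO and Mut below stand for libraries so labelled. The MPP libraries carried lower sums of 12 stem and LSK markers than LSK (630 to 852 against 3116 to 3841 CPM) and higher sums of 10 markers of granulocyte-monocyte progenitors (50650 to 65910 against 2611 to 7094 CPM). These sums do not show that the cells were multipotent, and MPP below is only the name in the descriptions.

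Compared per kilobase of exon, with the exons of all annotated transcripts merged, 4 MCM helicase genes were the most abundant of the 43. Merged exons can be longer than any mRNA of a gene, so the order depends on the annotation. The mean over the 12 libraries was 170 CPM per kb for Mcm6, 160 for Mcm5, 156 for Mcm3 and 107 for Mcm7, followed by 103 for Fen1, the nuclease that trims Okazaki flaps. The lowest were Pole, the catalytic subunit of polymerase epsilon, at 6.59 CPM per kb, and Orc4 of the origin recognition complex at 8.35 CPM per kb. Summed CPM of the 43 genes came to 6183 ± 252 in LSK WT, 6727 ± 85.9 in LSK KO, 7789 ± 406 in LSK Mut, and to 9846 ± 270, 11230 ± 247 and 10210 ± 133 for WT, KO and Mut of MPP (SD, n = 2). The lowest MPP library, at 9655 CPM, was thus above the highest LSK library, at 8076 CPM. In bulk RNA, fewer cells in cycle and less of these mRNAs per cell cannot be told apart. These sums are shares of the counts, and under spike-in scaling all 43 genes were higher in LSK. No cell numbers were used, so neither scale gives amounts per cell.

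**Figure D1:**
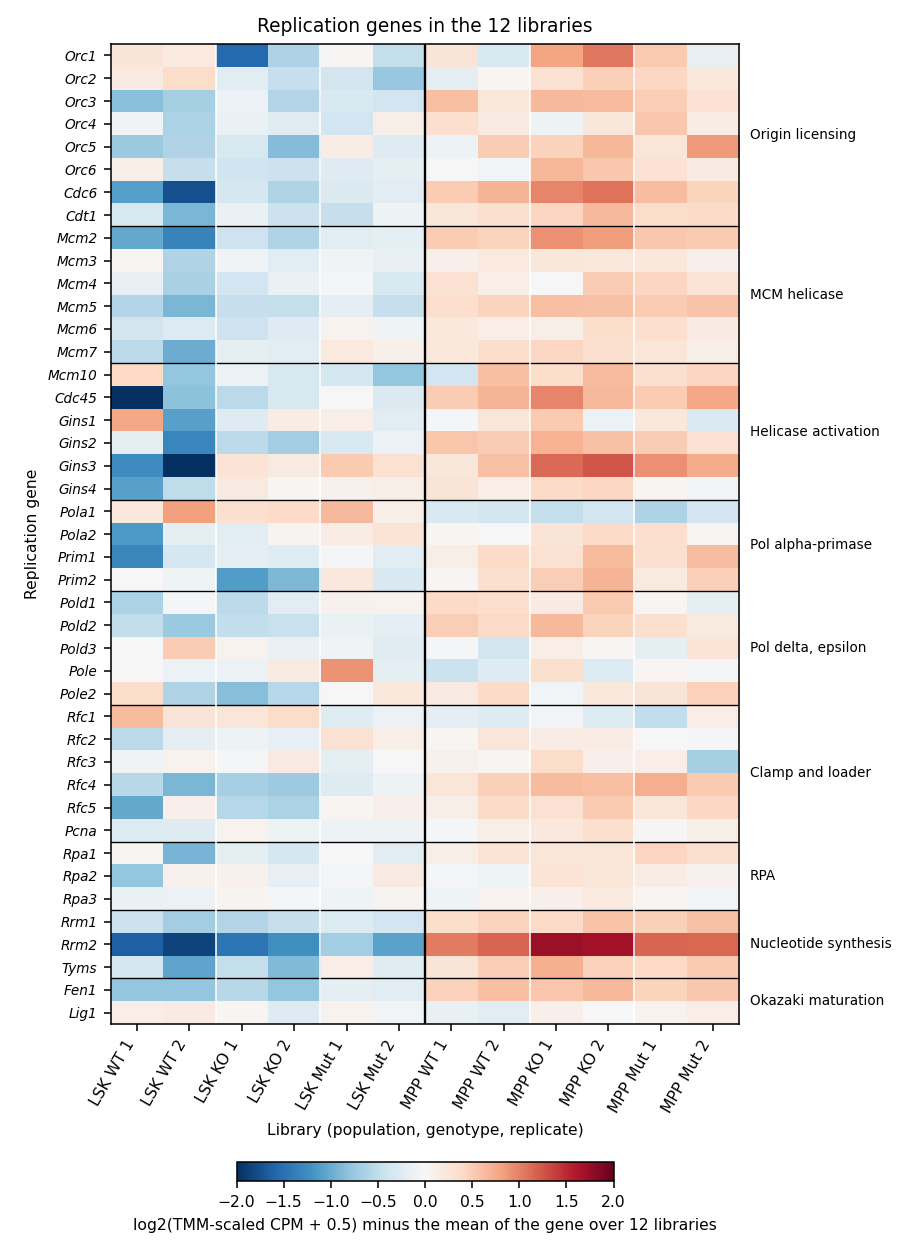
Rows are the 43 replication genes grouped by role, columns are the 12 libraries, and colour is log2(TMM-scaled CPM + 0.5) minus the gene's mean over the libraries, with values beyond 2 shown at the end of the scale. Most rows are blue in LSK and red in MPP, Rrm2 most of all, while Pola1, and Rfc1 in WT and KO, run the other way, and under spike-in scaling all 43 genes are higher in LSK.

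Promoters are shown for the 7 genes with which the results below are told: Mcm2, Mcm5 and Mcm6 of the helicase, Cdc6 and Orc3 of licensing, Rrm2 of nucleotide synthesis, and Pola1, which ran against the others. Each line gives the 170 bases before the transcription start from RefSeq (GRCm38.p6), read 5′ to 3′ on the strand of the gene, with E2F spellings and CCAAT boxes of either strand (ATTGG where the box is on the other strand) in capitals.
Mcm2, chr6:88898781-88898950, minus strand: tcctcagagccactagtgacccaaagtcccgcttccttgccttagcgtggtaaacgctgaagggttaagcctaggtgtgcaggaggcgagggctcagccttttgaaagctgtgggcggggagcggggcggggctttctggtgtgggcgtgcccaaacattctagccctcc
Mcm5, chr8:75109339-75109508, plus strand: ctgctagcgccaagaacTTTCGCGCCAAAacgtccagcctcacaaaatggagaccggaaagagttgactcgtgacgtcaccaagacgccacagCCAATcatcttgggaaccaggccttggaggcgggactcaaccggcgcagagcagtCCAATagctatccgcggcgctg
Mcm6, chr1:128359706-128359875, minus strand: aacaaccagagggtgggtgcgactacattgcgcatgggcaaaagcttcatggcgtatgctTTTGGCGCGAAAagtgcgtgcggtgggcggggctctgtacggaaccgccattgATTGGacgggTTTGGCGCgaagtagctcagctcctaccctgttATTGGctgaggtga
Cdc6, chr11:98907981-98908150, plus strand: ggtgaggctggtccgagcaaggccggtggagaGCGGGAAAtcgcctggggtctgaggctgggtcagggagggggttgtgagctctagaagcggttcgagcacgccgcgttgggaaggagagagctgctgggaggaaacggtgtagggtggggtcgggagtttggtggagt
Orc3, chr4:34614943-34615112, minus strand: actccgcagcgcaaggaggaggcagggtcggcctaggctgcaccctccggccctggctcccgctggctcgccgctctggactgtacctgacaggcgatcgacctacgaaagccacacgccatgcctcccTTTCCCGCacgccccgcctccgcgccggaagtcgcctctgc
Rrm2, chr12:24708084-24708253, plus strand: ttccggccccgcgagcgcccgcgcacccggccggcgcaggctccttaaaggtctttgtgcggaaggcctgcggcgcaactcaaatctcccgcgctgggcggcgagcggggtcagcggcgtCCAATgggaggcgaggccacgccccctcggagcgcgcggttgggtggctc
Pola1, chrX:93632156-93632325, minus strand: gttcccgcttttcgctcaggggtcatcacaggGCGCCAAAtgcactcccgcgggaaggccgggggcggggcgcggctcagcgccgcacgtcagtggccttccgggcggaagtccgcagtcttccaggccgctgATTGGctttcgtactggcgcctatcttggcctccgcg

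The E2F search used the spellings TTTCCCGC, TTTGGCGC, TTTCGCGC and TTTGCCGC on both strands over the 250 bases before a start. At least 1 of them lay upstream of 9 of the 36 replication genes in the RefSeq promoter table (25%), against 2.16% of all 27025 genes in it and 4.19% of the 8201 genes with at least 1000 counts. The 9 were Mcm5, Mcm6, Mcm7, Orc1, Orc3, Cdc6, Gins3, Pola1 and Rfc3. In Mcm6 the matches began 110, 106 and 47 bases before the start, the first pair overlapping, and in Mcm5 an overlapping pair began 153 and 149 bases before it. CCAAT, on either strand, lay in 63.9% of the 36 upstream windows and in 41.1% of those of genes with at least 1000 counts. GGGCGG, the GC box, lay in 72.2% and 65.1%, and the cell cycle element CHR (TTTGAA or TTCGAA) in 19.4% and 14.7%. The printed bases of Mcm2 hold none of these E2F spellings and no CCAAT. These are matches of letters, not binding sites. Mcm4, Gins1, Gins2, Gins4, Prim2, Pole and Rfc2 had no entry in the table.

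LSK cells held lower shares of replication mRNAs than MPP cells in all 3 genotypes on the TMM scale, with the order turned under spike-in scaling as given below. In WT, 19 of the 43 genes were called lower in LSK and 2 higher by edgeR's quasi-likelihood test (a call is a Benjamini-Hochberg adjusted p under 0.05), where 24% of all 14033 genes tested were called, 13.7% lower and 10.2% higher. The median log2 difference, LSK minus MPP, was -0.60 over the 43 genes and 0.00 over all genes. In KO, 22 were called lower and 0 higher, against 15.2% of all genes called, 8.14% lower and 7.03% higher, with a median of -0.72 beside 0.05 over all genes. In Mut, 8 were called lower and 1 higher, against 8.76% of all genes called, 5.21% lower and 3.55% higher, with a median of -0.42 beside 0.03. Group means were lower in LSK in all 3 genotypes for 30 of the 43 genes (69.8%), beside 28% of all genes. The 7 genes called lower in every genotype were Mcm2, Mcm5, Orc3, Rfc4, Rrm1, Rrm2 and Fen1, and 16 genes were called in none. The shares of all genes called in every genotype or in none were not counted, so these counts only list the genes. The 8 genes called lower in Mut held 7 that were called lower in both other genotypes, with Orc2 the other one, called in KO as well.

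Under spike-in scaling the median of LSK minus MPP over all genes became 4.17 in WT, 4.66 in KO and 5.88 in Mut, and all 43 replication genes lay above 0. Relative to that shift, the medians of the 43 genes were -0.58, -0.77 and -0.46, with 11, 7 and 1 genes called lower. Those counts stood beside 11.6%, 3.95% and 2.53% of all genes called. Without both LSK WT libraries, which share in the estimate of the spread, 29 replication genes were called in KO (28 lower) and 16 in Mut (15 lower), beside 23.7% and 16.2% of all genes. With only the 4 libraries of a genotype in the fit, 8 genes were called lower in WT, and 14 genes were called in Mut (13 lower), beside 7.75% and 13.2% of all genes. Leaving out MPP WT replicate 2 left 13 genes called in WT, beside 13.6% of all genes. Leaving out either library of LSK KO or of MPP KO left 11 to 14 called in KO, beside 6.68% to 6.86% of all genes. In Mut, the number called moved with the library left out, as did the share of all genes called. The median of the 43 genes in Mut ran from -0.46 to -0.34 over the 19 alternatives run relative to all genes.

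The widest gap of a gene in nucleotide synthesis was that of Rrm2. This small subunit of ribonucleotide reductase, whose level follows S phase, was at 55.6 and 47.7 CPM in LSK WT, 62.5 and 73.6 in LSK KO, 107 and 82.4 in LSK Mut, 356 and 389 in MPP WT, 575 and 558 in MPP KO and 389 and 385 in MPP Mut. Every LSK library was below every MPP library, and MPP KO was the highest group. Rrm2 was 7.21-fold lower in LSK in WT (log2 -2.85, SE 0.161, adjusted p = 8.31e-07), 8.32-fold lower in KO (-3.06, SE 0.161, adjusted p = 6.76e-07) and 4.09-fold lower in Mut (-2.03, SE 0.155, adjusted p = 1.60e-05). Its partner Rrm1, the large subunit, was at 305 and 252 CPM in LSK WT, 274 and 299 in LSK KO, 339 and 315 in LSK Mut, 526 and 557 in MPP WT, 533 and 609 in MPP KO and 573 and 619 in MPP Mut. Rrm1 was also apart in all libraries of both populations, but its gaps were smaller, at 1.95-fold, 1.99-fold and 1.82-fold. By CPM, Rrm2 was below Rrm1 in LSK WT (51.7 against 278 CPM) and in MPP WT (372 against 541 CPM). Per kilobase of merged exon, Rrm2 was below Rrm1 in LSK WT (18.6 against 25.3 CPM per kb). In MPP WT, Rrm2 was above Rrm1 on that measure (134 against 49.2 CPM per kb). That order rests on the merged lengths, 2.77 kb for Rrm2 and 11.01 kb for Rrm1. Tyms, the thymidylate synthase, was called lower in LSK in WT (log2 -1.03) and KO (-1.26) and not in Mut (-0.51, adjusted p = 0.233).

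Of the 8 licensing genes, 7 were called lower in LSK in KO (Orc1, Orc2, Orc3, Orc5, Orc6, Cdc6 and Cdt1), 3 in WT (Orc3, Cdc6 and Cdt1) and 2 in Mut (Orc2 and Orc3), where 8.14%, 13.7% and 5.21% of all genes were called lower. These counts do not show that the genotypes differ. With edgeR, TMM scaling, the low-count filter and all 12 libraries, no licensing gene was called in the tests of that difference given below. For KO against WT, DESeq2 called Orc1 and Orc2, and Orc2 was also called without LSK WT replicate 1. For Mut against WT, Orc2 lay just short of a call (-1.23, edgeR adjusted p = 0.0516). There DESeq2, other size factors and the fit without the filter each called 1 replication gene with a negative difference. The further genes called by alternatives for Mut against WT or KO against Mut are not named here, so licensing genes may be among them. Leaving out 1 of the 4 LSK KO and MPP KO libraries ended the KO calls of Orc2, Orc5 and Cdt1 in each case, that of Orc1 without LSK KO replicate 1 or MPP KO replicate 2, that of Orc3 without LSK KO replicate 2 or MPP KO replicate 1, and that of Orc6 without LSK KO replicate 2. Cdc6 kept its call in all 18 alternatives in WT and all 19 in KO that were run relative to all genes. The medians of the 8 licensing genes were -1.0 in KO, -0.73 in WT and -0.63 in Mut. Cdc6, which recruits the helicase to origins, was at 38.9 and 24.5 CPM in LSK WT, 65.7 and 55.4 in LSK KO, 68.8 and 72.3 in LSK Mut, 120 and 134 in MPP WT, 165 and 178 in MPP KO and 129 and 114 in MPP Mut. All LSK libraries were below all MPP libraries, with LSK WT lowest, and the differences were -2.01 in WT (SE 0.234, adjusted p = 0.000136), -1.50 in KO (SE 0.228, adjusted p = 0.00125) and -0.78 in Mut (SE 0.225, adjusted p = 0.0551). Cdt1, the other loading factor and the licensing gene with the highest CPM, was at 121 and 80.4 CPM in LSK WT, 138 and 113 in LSK KO, 110 and 142 in LSK Mut, 178 and 189 in MPP WT, 204 and 238 in MPP KO and 196 and 198 in MPP Mut. Its LSK and MPP libraries did not overlap, and it was called in WT (log2 -0.87) and KO (-0.82). Orc3 was at 60.3 and 67.7 CPM in LSK WT, 98.7 and 71.6 in LSK KO, 86.8 and 82.6 in LSK Mut, 163 and 125 in MPP WT, 169 and 167 in MPP KO and 152 and 131 in MPP Mut. It was the only licensing gene called in all 3 genotypes, at -1.17, -0.98 and -0.74, and its call in Mut (adjusted p = 0.0461) was lost in 9 of 19 alternatives.

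Orc1 and Orc2, other subunits of the recognition complex, did not follow this pattern in WT. Orc1 was at 35.1 and 33.6 CPM in LSK WT, 9.67 and 19 in LSK KO and 29.7 and 20.9 in LSK Mut, and at 35.2 and 23.5 CPM in MPP WT, 50.7 and 61.4 in MPP KO and 42.4 and 26.2 in MPP Mut. Its LSK KO libraries were the lowest of the 12, and it was called only in KO (log2 -1.97, SE 0.436, adjusted p = 0.0117). In WT it lay at 0.23 (SE 0.421), and the test of the difference between the KO and WT values gave -2.19 (SE 0.602, adjusted p = 0.141). Orc2 shares 19046 bases with Nif3l1 on the opposite strand. Overlaps here and below are of whole gene spans, introns included. Overlap of exons was not measured, and with no strand setting given, reads from any shared exon bases cannot be told apart. Group means ran 118, 76.9 and 66.3 CPM for Orc2 and 11.1, 36.0 and 54.4 CPM for Nif3l1 in LSK WT, KO and Mut.

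The MCM helicase genes were all below 0 in all 3 genotypes on the TMM scale, and all above 0 under spike-in scaling. Mcm2 (chr6:88883474-88898780, minus strand, GRCm38) was at 238 and 193 CPM in LSK WT, 365 and 322 in LSK KO, 420 and 427 in LSK Mut, 690 and 662 in MPP WT, 920 and 868 in MPP KO and 711 and 701 in MPP Mut. LSK WT was lowest, MPP KO highest, and no LSK library reached an MPP library, with differences of -1.65 (SE 0.116, adjusted p = 3.66e-06), -1.38 (SE 0.114, adjusted p = 2.30e-05) and -0.74 (SE 0.113, adjusted p = 0.0022) in WT, KO and Mut. Mcm5 was at 399 and 318 CPM in LSK WT, 432 and 431 in LSK KO, 529 and 435 in LSK Mut, 755 and 816 in MPP WT, 906 and 897 in MPP KO and 845 and 885 in MPP Mut. It was again apart in all libraries, at 2.19-fold, 2.09-fold and 1.80-fold lower in LSK. Mcm6, the helicase gene with the highest CPM, was at 608 and 647 CPM in LSK WT, 588 and 652 in LSK KO, 822 and 740 in LSK Mut, 911 and 856 in MPP WT, 852 and 999 in MPP KO and 989 and 881 in MPP Mut. Its LSK libraries, too, were all below those of MPP, by a narrower margin, and the difference was called in WT (1.41-fold lower) and KO (1.49-fold lower) and not in Mut (log2 -0.26, adjusted p = 0.176).

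Mcm7 (chr5:138164583-138172422, minus strand, GRCm38) was at 315 and 230 CPM in LSK WT, 402 and 397 in LSK KO, 526 and 492 in LSK Mut, 532 and 583 in MPP WT, 612 and 575 in MPP KO and 542 and 497 in MPP Mut. Here 1 LSK Mut library lay between those of MPP Mut and the other just below them, while LSK WT and LSK KO stayed below all MPP libraries. The differences were -1.03 in WT (SE 0.139, adjusted p = 0.000353), -0.57 in KO (SE 0.137, adjusted p = 0.0178) and -0.03 in Mut (95% interval -0.33 to 0.27, adjusted p = 0.941). The call in KO was lost without any 1 of the LSK KO or MPP KO libraries. Mcm3 and Mcm4, the other two helicase genes, were called in no genotype, at -0.40, -0.37 and -0.27 for Mcm3 and -0.60, -0.52 and -0.52 for Mcm4. The 6 products form a single ring, and the fold between populations in WT ran from 3.14-fold lower for Mcm2 to an uncalled log2 of -0.40 for Mcm3. Mcm7 overlaps Ap4m1 by 421 bases and Cops6 by 64 bases on the opposite strand; Ap4m1 was at 9.40 to 30.9 CPM and Cops6 at 102 to 279 CPM over the 6 groups.

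Among the genes that switch the helicase on, Cdc45 was at 19.3 and 48.9 CPM in LSK WT, 59.9 and 69.3 in LSK KO, 87.3 and 71 in LSK Mut, 123 and 139 in MPP WT, 171 and 137 in MPP KO and 124 and 149 in MPP Mut. The LSK WT libraries were the lowest of the 12, and the called differences were -1.93 in WT (SE 0.352, adjusted p = 0.0025) and -1.25 in KO (SE 0.343, adjusted p = 0.0316), with -0.79 in Mut (adjusted p = 0.191). The KO call of Cdc45 was lost without any 1 of the 4 LSK KO and MPP KO libraries and relative to the spike-in shift, and the WT call with only the WT libraries in the fit. Gins2, a subunit of the GINS complex, was called in WT (-1.19) and KO (-1.27), and Gins4 in WT only (-0.96), with -0.28 in KO and 0.11 in Mut. The calls of Gins2 were lost in 4 of 18 alternatives in WT and 5 of 19 in KO, and that of Gins4 in 3 of 18. Gins3 was at 8.65 and 0.239 CPM in LSK WT, 25.8 and 24.3 in LSK KO and 30.8 and 26.6 in LSK Mut. The second LSK WT library held 3 counts of Gins3, and neither its WT difference (-2.72, SE 0.926, adjusted p = 0.0548) nor any other was called. Mcm10, which binds the active helicase, and Gins1 were called in no genotype, and Gins2 shares 2758 bases with Gse1 on the opposite strand.

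Polymerase genes split. Pola1 (chrX:93304767-93632155, minus strand, GRCm38), the catalytic subunit of polymerase alpha, was at 105 and 161 CPM in LSK WT, 115 and 118 in LSK KO, 143 and 98.3 in LSK Mut, 73.5 and 69.8 in MPP WT, 65 and 69.6 in MPP KO and 59.2 and 69.4 in MPP Mut. Every LSK library was above every MPP library, with differences of 0.89 in WT (SE 0.244, adjusted p = 0.0217), 0.79 in KO (SE 0.243, adjusted p = 0.0513) and 0.91 in Mut (SE 0.243, adjusted p = 0.042). The call in WT was lost without LSK WT replicate 2, without either MPP WT library, with only the WT libraries in the fit and relative to the spike-in shift, and the call in Mut in 11 of 19 alternatives. Its partner Pola2, the accessory subunit, was at 74.6 and 147 CPM in LSK WT, 144 and 174 in LSK KO, 185 and 201 in LSK Mut, 172 and 167 in MPP WT, 199 and 218 in MPP KO and 211 and 170 in MPP Mut. Pola2 was called in no genotype, and its log2 differences were -0.62, -0.39 and 0.02, and the first LSK WT library was the lowest of the 12. The primase subunits Prim1 and Prim2 were each called in 1 genotype, Prim1 in WT (-1.01, adjusted p = 0.0219) and Prim2 in KO (-1.60, adjusted p = 0.00183). The call of Prim1 was lost in 4 of 18 alternatives, while Prim2 kept its call in all 19. Prim2 was at 61.2 and 57.1 CPM in LSK WT, 27.9 and 32.5 in LSK KO, 70.8 and 49.1 in LSK Mut, 61.9 and 75.8 in MPP WT, 85.5 and 97.8 in MPP KO and 69.9 and 85.3 in MPP Mut. Its LSK KO libraries were the lowest of the 12, below both LSK WT and LSK Mut.

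Of polymerase delta, Pold1, the catalytic subunit, was at 189 and 287 CPM in LSK WT, 205 and 253 in LSK KO, 313 and 307 in LSK Mut, 383 and 371 in MPP WT, 330 and 424 in MPP KO and 298 and 258 in MPP Mut. It was called lower in LSK in WT (log2 -0.66) and KO (-0.72) and lay at 0.16 in Mut (adjusted p = 0.696), where both LSK Mut libraries were above both of MPP Mut. The call in WT was lost in 5 of 18 alternatives and that in KO in 4 of 19. Pold2, the accessory subunit, was at 102 and 85.2 CPM in LSK WT, 101 and 105 in LSK KO, 131 and 126 in LSK Mut, 201 and 187 in MPP WT, 224 and 195 in MPP KO and 179 and 162 in MPP Mut. Pold2 was apart in all libraries and was called in WT (-1.05, SE 0.153, adjusted p = 0.000616) and KO (-1.03, SE 0.153, adjusted p = 0.00109), not in Mut (-0.41, adjusted p = 0.132). Pold3, Pole and Pole2 were called in no genotype.

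In the clamp and its loader, Rfc4, a small subunit of the loader, was at 72.7 and 56.6 CPM in LSK WT, 67.4 and 64.7 in LSK KO, 89.6 and 99.3 in LSK Mut, 126 and 149 in MPP WT, 166 and 162 in MPP KO and 178 and 153 in MPP Mut. All LSK libraries were below all MPP libraries, and it was called in all 3 genotypes, at -1.09, -1.31 and -0.81. Those calls were lost in 2 of 18 alternatives in WT, 1 of 19 in KO and 4 of 19 in Mut. Rfc1, the large subunit, lay the other way in WT, at 0.67 (SE 0.205, adjusted p = 0.035), with 0.46 in KO and -0.02 in Mut. Its WT call was lost in 8 of 18 alternatives: without LSK WT replicate 1, either LSK KO library, LSK Mut replicate 2 or either MPP WT library, with only the WT libraries in the fit, and relative to the spike-in shift. Rfc2, the loader gene with the highest CPM, was at 310 and 391 CPM in LSK WT, 421 and 399 in LSK KO, 554 and 492 in LSK Mut, 462 and 534 in MPP WT, 497 and 499 in MPP KO and 453 and 441 in MPP Mut. It was called only in WT (-0.50, adjusted p = 0.0147), where LSK WT was the lowest group, and that call was lost in 4 of 18 alternatives. Rfc2 shares 1784 bases with Lat2 on the opposite strand. Rfc5 was called only in KO (-1.01), a call lost in 5 of 19 alternatives, and Rfc3 in none. Pcna, the clamp, was called in no genotype, at -0.31, -0.29 and -0.18.

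Replication protein A, which covers single-stranded DNA, is a complex of Rpa1, Rpa2 and Rpa3. The smallest adjusted p of its genes between LSK and MPP was that of Rpa1 in WT (-0.57, SE 0.243, adjusted p = 0.111). Its most abundant gene by CPM, Rpa2, was at 123 and 224 CPM in LSK WT, 224 and 188 in LSK KO, 207 and 239 in LSK Mut, 205 and 198 in MPP WT, 254 and 249 in MPP KO and 235 and 224 in MPP Mut. The first LSK WT library was lowest and the second was within the range of MPP, and the differences were -0.21, -0.29 and -0.04. Of the Okazaki fragment genes, Fen1 was at 136 and 136 CPM in LSK WT, 157 and 136 in LSK KO, 205 and 200 in LSK Mut, 321 and 354 in MPP WT, 341 and 363 in MPP KO and 315 and 339 in MPP Mut. Fen1 was apart in all libraries, at 2.49-fold, 2.40-fold and 1.62-fold lower in LSK (adjusted p = 2.95e-05, 6.74e-05 and 0.00482 in WT, KO and Mut), and its call in Mut was lost without LSK Mut replicate 2 and relative to the spike-in shift. Lig1, the ligase that seals the fragments, was called in no genotype, at 0.33, -0.14 and -0.09.

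**Figure D2:**
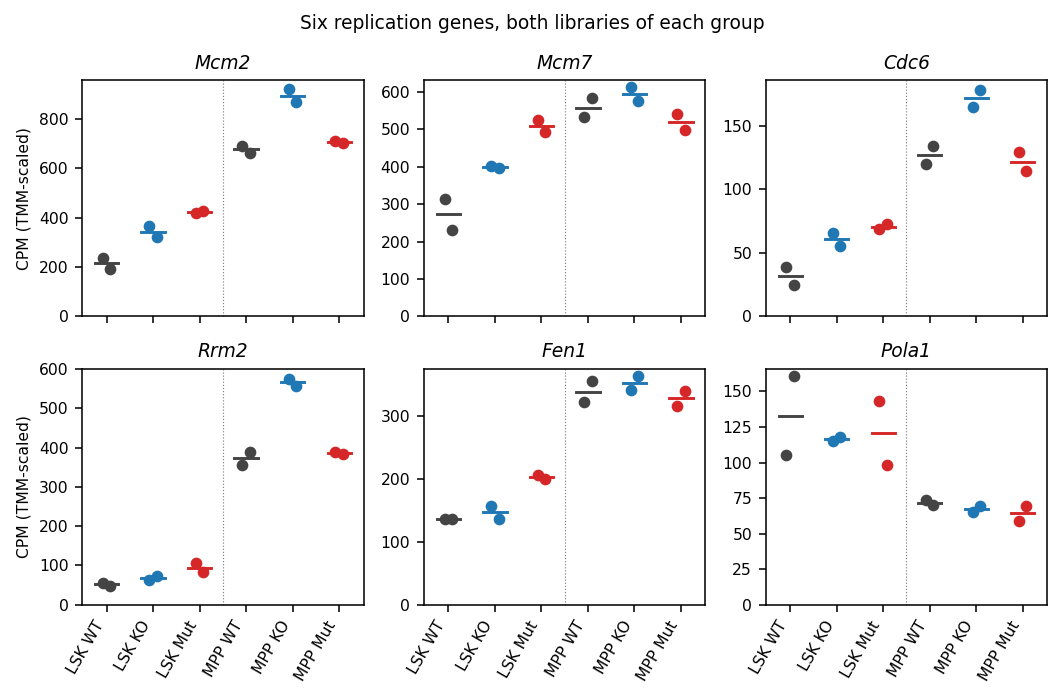
Panels give TMM-scaled CPM from 0 for 6 replication genes, with points for both libraries of each group and a line at their mean; the dotted line parts LSK from MPP. Mcm2, Cdc6, Rrm2 and Fen1 are lower in all LSK libraries, Mcm7 reaches MPP levels in LSK Mut, and Pola1 is higher in LSK, all on the TMM scale, while under spike-in scaling each is higher in LSK.

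Within LSK cells, most replication genes lay above WT in Mut on the TMM scale, and 1 was called. The median log2 difference, Mut minus WT, was 0.34 over the 43 genes and 0.01 over all genes, and 33 of the 43 lay above 0. Under spike-in scaling the median over all genes went to 1.10 and that of the 43 to 1.43, with 43 above 0. Mcm2 was the gene called (0.96, SE 0.146, 1.94-fold higher, adjusted p = 0.0368), where 1.28% of all 13170 genes tested were called and 0.539% called higher. Both Mut libraries, at 420 and 427 CPM, were above both KO libraries, which were above both WT libraries. The next were Mcm7 (0.88, SE 0.161, adjusted p = 0.0518), Rfc2 (0.56, adjusted p = 0.118), Rfc1 (-0.64, adjusted p = 0.12), Fen1 (0.56, adjusted p = 0.134), Orc2 (-0.86, adjusted p = 0.135) and Cdc6 (1.14, adjusted p = 0.135). Rrm2 stood at 0.85 (SE 0.266, adjusted p = 0.16). DESeq2 called 8 of the 43, 6 higher and 2 lower, beside 11.1% of all genes.

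The single call of Mcm2 rested on the libraries and the fit. It was lost without either LSK KO library, without either LSK Mut library, in the fit of LSK WT and Mut alone, with a replicate block and relative to the spike-in shift, while the fitted difference ran from 0.83 to 1.11 over its 13 alternatives and adjusted p from 6.02e-07 to 0.464. Without LSK WT replicate 1, 12 replication genes were called (10 higher), beside 17.3% of all genes, and without LSK WT replicate 2, 13 were called (11 higher), beside 18.7%. A fit of all 12 libraries called 8, of which 7 were higher, beside 6.76% of all genes.

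KO against WT in LSK called 0 of the 43 genes, where 0.0456% of all genes were called. At an unadjusted p under 0.05 there were 7 of 43 (4 higher and 3 lower) beside 13.8% of all genes, and DESeq2 called 1 beside 4.77%. The median was 0.09 beside 0.00 over all genes, with 28 genes above 0, and under spike-in scaling the median over all genes went to 0.51 and that of the 43 to 0.59. The 3 genes with the smallest p were Mcm2 (0.65, SE 0.145, adjusted p = 0.194), Mcm7 (0.53, SE 0.16, adjusted p = 0.262) and Gins4 (0.86, SE 0.272, adjusted p = 0.275). Without LSK WT replicate 1, 6 genes were called (5 higher) beside 10.5% of all genes, and without replicate 2, 7 were called, all higher, beside 12% of all genes. The comparisons of KO and of Mut share the WT libraries, so their values are not independent of each other.

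KO against Mut in LSK, which does not use the LSK WT libraries other than for the spread, called 0 of the 43, where 0.0607% of all genes were called. An unadjusted p under 0.05 was reached by 5 of the 43 beside 4.24% of all genes. DESeq2 called 0 beside 3.12% of all genes, and 0 were called without both LSK WT libraries beside 0.278%. The median was -0.19, with 34 genes below 0 on the TMM scale and 43 below 0 under spike-in scaling. The smallest p-values were those of Prim2 (-0.99, SE 0.318, adjusted p = 0.951), Mcm6 (-0.33, SE 0.111, adjusted p = 0.975) and Fen1 (-0.47, SE 0.157, adjusted p = 0.977). The order of group means was WT, KO, Mut from low to high in 23 of the 43 genes (53.5%), beside 25.9% of all genes.

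In MPP cells the median gap of a replication gene between the libraries of a group was 0.13 to 0.16 on the log2 scale. KO against WT called 1 of the 43, where 0.363% of all 12947 genes tested were called and 0.216% called higher. It was Rrm2 (chr12:24708241-24714146, plus strand, GRCm38), at 575 and 558 CPM in KO against 356 and 389 CPM in WT (0.60, SE 0.0861, 1.52-fold higher, adjusted p = 0.0336). Its call was lost in 10 of 13 alternatives, among them each of the 6 in which a library was left out, while its difference stayed between 0.55 and 0.68. Of the 43 genes, 38 lay above 0, with a median of 0.21 beside -0.01 over all genes, and the spike-in shift of all genes was 0.05. Mcm2 followed at 0.40 (SE 0.0717, adjusted p = 0.0914), at 920 and 868 CPM against 690 and 662 CPM. DESeq2 called 3, all higher, beside 2.15% of all genes. In MPP KO the 8 markers of mast cells, basophils and eosinophils described below were also lower in sum than in WT, at 10760 to 11630 against 16830 to 18280 CPM, with 5 called lower and 0 higher, and their part in the Rrm2 difference was not tested.

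Mut against WT in MPP called 0 of the 43, where 0.224% of all genes were called, with 3 at an unadjusted p under 0.05 beside 9.75% of all genes. DESeq2 also called 0, beside 2.51% of all genes. The median was 0.08 with 30 genes above 0, and it turned to -0.51 with 0 above 0 under spike-in scaling, where the median of all genes moved to -0.59. The smallest p-values were those of Pold1 (-0.44, SE 0.137, adjusted p = 0.359), Lig1 (0.29, SE 0.108, adjusted p = 0.439) and Orc2 (0.39, SE 0.165, adjusted p = 0.493). KO against Mut in MPP called 0 of the 43, where 0.239% of all genes were called. At an unadjusted p under 0.05 there were 6, all higher in KO, beside 9.48% of all genes. DESeq2 called 2, beside 2.11% of all genes. The median was 0.13, and under spike-in scaling the median over all genes went to 0.65 and that of the 43 to 0.78. Rrm2 (0.55, SE 0.0859, adjusted p = 0.0719), Mcm2 (0.34, SE 0.0716, adjusted p = 0.189) and Cdc6 (0.50, SE 0.143, adjusted p = 0.341) had the smallest p-values. From low to high, group means ran WT, Mut, KO in 21 genes (48.8%), beside 16.1% of all genes.

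**Figure D3:**
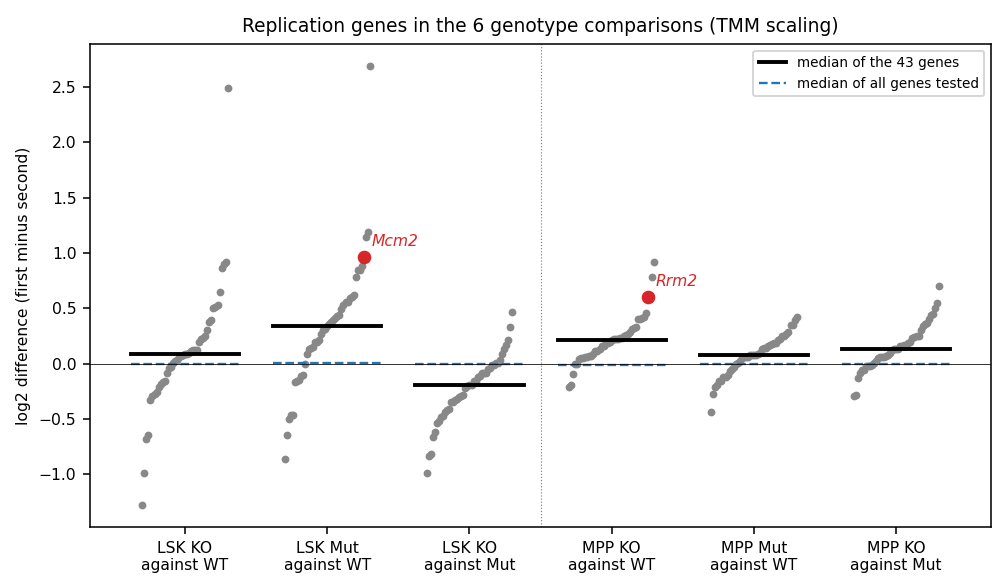
Each point is the edgeR log2 difference of a replication gene, first group minus second on the TMM scale, in the 6 genotype comparisons, with black lines at the median of the 43 genes, dashed lines at that of all genes tested, and red points for adjusted p under 0.05. Mcm2 in LSK Mut against WT and Rrm2 in MPP KO against WT are the only red points; under spike-in scaling the median in MPP Mut against WT turns from 0.08 to -0.51.

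Whether a genotype difference was larger in LSK than in MPP was tested in the fit of all 12 libraries. For Mut against WT, 2 of the 43 were called, both larger in LSK, where 2.53% of all genes were called and 1.52% called higher. Mcm2 differed by 0.91 (SE 0.159, 95% interval 0.56 to 1.27, adjusted p = 0.0159), from 0.96 in LSK and 0.06 in MPP. Mcm7 differed by 1.0 (SE 0.194, 95% interval 0.57 to 1.43, adjusted p = 0.0233), from 0.88 in LSK and -0.10 in MPP. Both calls were lost when any library of LSK Mut, MPP WT or MPP Mut was left out. Without LSK WT replicate 1 or replicate 2, 10 replication genes were called, 9 of them larger in LSK, beside 8.72% and 9.58% of all genes, and DESeq2 called 8 beside 8.27%. Orc2 (-1.23, adjusted p = 0.0516), Rfc2 (0.73, adjusted p = 0.0596), Cdc6 (1.23, adjusted p = 0.0738) and Rrm2 (0.82, adjusted p = 0.0738) came next.

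For KO against WT, 0 of the 43 were called, where 0.727% of all genes were called, with 7 at an unadjusted p under 0.05 beside 12.4% of all genes, and DESeq2 called 4 beside 4.61%. The smallest p-values belonged to Prim2 (-1.38, SE 0.357, adjusted p = 0.116), Orc2 (-1.08, SE 0.288, adjusted p = 0.128) and Orc1 (-2.19, SE 0.602, adjusted p = 0.141). The median of the 43 was -0.06 and turned to 0.39 under spike-in scaling. Leaving out either LSK WT library gave 4 called genes, beside 5.47% and 6.07% of all genes. For KO against Mut, which needs no WT library, 0 were called, where 0.0641% of all genes were called. At an unadjusted p under 0.05 there were 11, all negative, beside 6.38% of all genes. DESeq2 called 2, beside 0.9% of all genes. The median was -0.39, with 38 genes below 0. Rrm2 (-1.03, SE 0.212, adjusted p = 0.218), Mcm2 (-0.64, SE 0.159, adjusted p = 0.338) and Prim2 (-1.23, SE 0.356, adjusted p = 0.50) had the smallest p-values.

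Other genes of the cell cycle were read from lists of 40 further replication genes, 30 genes of G1/S control and 25 mitotic genes. In LSK against MPP, the counts below stand beside 13.7% of all genes called lower and 10.2% higher in WT, 8.14% and 7.03% in KO, and 5.21% and 3.55% in Mut. All are on the TMM scale, and under spike-in scaling all genes of the 3 lists lay above 0 in each genotype, Ccne1 at 1.10 in WT and Aurkb at 1.96. Of the mitotic genes, 13 were called lower in LSK and 1 higher in WT (median -0.76 on the TMM scale), 15 lower and 0 higher in KO (-0.82) and 2 lower and 0 higher in Mut (-0.39). Aurkb, the kinase of the chromosomal passenger complex, was 4.75-fold lower in LSK in WT and rose in LSK Mut against WT (1.65, SE 0.22, adjusted p = 0.0292). Of the further replication genes, 8 were called lower and 5 higher in WT, 8 and 0 in KO, and 3 and 0 in Mut, with medians of -0.17, -0.44 and -0.26. Cdc7, the kinase that phosphorylates the MCM complex to start replication, ran against Mcm2 and Mcm7. Its mean was 212, 94.9 and 83.3 CPM in LSK WT, KO and Mut and 62.0, 88.9 and 108 CPM in MPP WT, KO and Mut. Cdc7 was 3.42-fold higher in LSK in WT, fell by 1.37 on the log2 scale in LSK Mut against WT (SE 0.181, adjusted p = 0.0292), and its KO and Mut differences were each more negative in LSK than in MPP (-1.68, adjusted p = 0.037, and -2.15, adjusted p = 0.00484), and under spike-in scaling these 3 values of Cdc7 were -0.24, -1.24 and -0.45. Of the G1/S genes, 8 were called lower and 4 higher in WT, 7 and 3 in KO, and 6 and 3 in Mut. Mycn was called higher in LSK in each genotype (5.19-fold, 7.27-fold and 4.67-fold), and Ccne1, cyclin E1, lower (8.91-fold, 9.68-fold and 7.12-fold).

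Most replication genes correlated positively with the mean of all 43 across the 6 group means, down to 0.405 for Orc2, 0.388 for Gins1 and 0.135 for Rfc3, and 5 correlated negatively. Pola1 (Pearson r = -0.946) and Rfc1 (-0.861) ran opposite to that mean, and Pold3 (-0.268), Pole (-0.174) and Lig1 (-0.113) were weakly negative. Over all other genes tested, those most like the mean were Prpf19 (r = 0.9974), Cox6b2 (0.9961), Adgre1 (0.9959), Ccnb2 (0.9957), a mitotic cyclin, and Sharpin (0.9948). These points are 6 group means that share libraries and the contrast of LSK with MPP, and the values are a description with no test.

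Markers of other cells moved with the comparisons above. Between LSK and MPP in WT, 11 of 12 stem and LSK markers were called higher in LSK and 9 of 10 granulocyte-monocyte progenitor markers lower. Summed markers of mast cells, basophils and eosinophils (8 genes) were 469 to 595 CPM in LSK and 10760 to 18280 CPM in MPP, and those of neutrophils (8 genes) 41.4 to 169 and 1092 to 2338 CPM. Within MPP, the mast cell, basophil and eosinophil sum was 16830 to 18280 CPM in WT, 10760 to 11630 in KO and 15800 to 16590 in Mut, and in Mut against WT 2 of the 8 were called lower and 3 higher. The neutrophil sum was 2066 to 2169, 2278 to 2338 and 1092 to 1103 CPM in MPP WT, KO and Mut, with 3 of 8 called lower in Mut against WT. Ltf, Lcn2, Retnlg and Mmp8 of the neutrophil list and Prss34 and Epx of the other were at 0 in both LSK WT libraries, and Mecom of the stem list was at 0 in 3 of the 6 MPP libraries. Prg2 of that other list was at 0.0797, 141 and 8.49 CPM in LSK WT, KO and Mut. It was the only gene of the list called against WT in LSK, in KO (10.47, edgeR adjusted p = 0.00496) and Mut (6.42, adjusted p = 0.0152). Gata2 and Fcer1a lay below LSK WT in both, and Cpa3 in KO, none of them called. Others lay above LSK WT, also with no call. In LSK WT, KO and Mut, Mcpt8 was at 13.9, 23.1 and 29.3 CPM and Ms4a2 at 0.0399, 5.78 and 4.52 CPM. In the same order, Epx was at 0, 29.5 and 0 CPM, Prss34 at 0, 0.166 and 16.7 CPM and Cpa3 at 99.1, 89.6 and 116 CPM. Within LSK, the 10 granulocyte-monocyte progenitor markers summed to 2611 to 3151 CPM in WT, 5623 to 5975 in KO, and 6800 to 7094 in Mut, with Mpo called higher in KO (1.29) and Mut (1.49) and Elane and Ly6c2 in Mut. In MPP they summed to 62680 to 65910 CPM in WT, 50940 to 51220 in KO, and 50650 to 53120 in Mut, and the 12 megakaryocyte-erythroid markers to 3453 to 3975, 5389 to 5477, and 4438 to 4666 CPM. The 8 markers of antigen-presenting cells (MHC class II and dendritic genes) summed to 191 to 266, 402 to 448 and 663 to 671 CPM in LSK WT, KO and Mut. Markers of T and NK cells (7 of the genes listed) summed to 301 to 490 CPM in LSK and 1166 to 1552 CPM in MPP, of which Nkg7 alone held 234 to 430 and 1020 to 1380 CPM, and those of B cells (8 genes) to 48.7 to 75.7 CPM in all 12 libraries. The part of these cells, and of the Rn45s share, in the replication gene differences was not tested.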

How the data were processed

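The authors deposited tables of whole-number counts per gene symbol for the 12 RNA-seq libraries, with spike-in RNAs as further rows. The submitters' processing notes name Trim Galore 0.4.1, TopHat2 2.0.13, HTSeq 0.6.1, Cufflinks and the mm10 build, without saying which tool made the counts, and the strand setting is not given in the sources used here. A column of the MPP table carries the library number of MPP KO replicate 1 but ends as the title of MPP KO replicate 2, and was taken as that library, which no other column names. Spike-in rows were kept out of library sizes. The members and lists were chosen with earlier results of these data known.

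Counts were tested with edgeR 4.0.16 in R 4.3.3: filterByExpr (minimum count 10, minimum total 15), TMM scaling, and a quasi-likelihood fit with Benjamini-Hochberg adjustment over all genes tested, called under 0.05. Genotype comparisons used the 6 libraries of a population; comparisons of LSK with MPP and interactions used all 12. The scripts were tested on simulated data with known changes. Each size of change was given to 100 genes, far fewer than the 2128 called between LSK and MPP in KO, so recovery there may differ. Of log2 changes of 1, 13% were recovered in LSK Mut against WT, 52% in MPP KO against WT and 12% in LSK against MPP in KO. Of changes of 2, 58%, 93% and 62% were recovered. A gene that was not called is thus not shown to be unchanged. Log2 CPM for correlations and the heat map carried a pseudocount of 0.5. The zero limit is 3 counts and covers counting error only. Libraries of a group are technical libraries of 1 pool, so p-values measure that spread alone. Values per library are given for called genes, up to 12 by smallest adjusted p, and for the gene of highest CPM in each of the 9 roles; those of Orc1, Gins3 and Pola1 were added after their values were seen. Promoters came from the RefSeq table (GRCm38.p6), gene positions and lengths from GENCODE (GRCm38). Lengths are of the exons of all transcripts of a gene, merged. Alternatives were DESeq2 1.42.0, other size factors, spike-in scaling, no filter, a replicate block, other sets of libraries in the fit, and leaving out each library; the fit without both LSK WT libraries was added after seeing the data.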

Additional observations from a re-analysis of the deposited data

Results flagged for a closer look

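The difference between Mut and WT was larger in LSK than in MPP for Mcm2, by 0.91 on the log2 scale (edgeR interaction test, SE 0.159, adjusted p = 0.0159), with both LSK Mut libraries above both LSK WT libraries. Mcm7 differed between the populations in the same way by 1.0 (SE 0.194, adjusted p = 0.0233), again with both LSK Mut libraries above both LSK WT libraries. Each call held in 10 of 18 alternatives, over which adjusted p ran from 9.32e-06 to 0.462 for Mcm2 and from 0.000177 to 0.436 for Mcm7. Their fitted values ran from 0.77 to 1.08 and from 0.80 to 1.25.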

How the results depend on the processing

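Counts of called replication genes moved with the tool, the scaling and the libraries in the fit, while the median over the 43 genes kept its sign in every comparison and alternative on a scale relative to all genes, except the KO interaction (-0.12 to 0.06). Shares of all genes called are given in brackets. With DESeq2 the counts were 1 in LSK KO against WT (4.77%) and 8 in LSK Mut against WT (11.1%). In MPP they were 3 in KO against WT (2.15%) and 2 in KO against Mut (2.11%). The interactions of KO, Mut and KO against Mut gave 4 (4.61%), 8 (8.27%) and 2 (0.9%). Spike-in scaling called 29 in LSK Mut against WT (22.8%) and 0 in MPP KO against WT (0.116%). It called 15, all lower, in MPP Mut against WT (17.7%), 35 in MPP KO against Mut (25.1%) and 37 in the Mut interaction (38.7%). For LSK against MPP it called 42, 43 and 43, all higher, in WT, KO and Mut (82.3%, 85.6% and 89.6%). Relative to the spike-in shift of all genes, 0 were called in LSK Mut against WT (0.456%) and MPP KO against WT (0.147%). The Mut interaction also had 0 (0.235%). For LSK against MPP, 11, 7 and 1 were called in WT, KO and Mut (11.6%, 3.95% and 2.53%). Without the low-count filter 2 were called in LSK Mut against WT (2.97%) and 2 in MPP KO against WT (1.19%). That setting also called 1 in MPP KO against Mut (1.23%), 7 in the Mut interaction (3.89%) and 1 in the interaction of KO against Mut (0.247%). Other size factors called 3 in the Mut interaction (2.59%). With only the groups compared in the fit, 0 were called in LSK Mut against WT (0.0399%) and MPP KO against WT (0.208%). The Mut interaction had 0 there too (0.398%), and LSK against MPP had 8 in WT (7.75%) and 14 in Mut (13.2%). One fit of all 12 libraries called 1 in LSK KO against WT (1.94%), 8 in LSK Mut against WT (6.76%) and 0 in MPP KO against WT (0.107%). Without both LSK WT libraries, 16 were called for LSK against MPP in Mut (16.2%). A replicate block left 0 in LSK Mut against WT (0.266%) and MPP KO against WT (0.178%), and 2 in the Mut interaction (1.77%). For LSK against MPP it left 21, 21 and 8 in WT, KO and Mut (22.3%, 13.4% and 7.78%). Replicate numbers did not pair the libraries, since the deviations of same-numbered libraries correlated at -0.039 to 0.036. Leaving out 1 library at a time gave 0 to 7 in LSK KO against WT, 0 to 13 in LSK Mut against WT, 0 to 0 in MPP KO against WT, 13 to 24, 11 to 29 and 5 to 16 for LSK against MPP in WT, KO and Mut, and 0 to 4 and 0 to 10 in the KO and Mut interactions. Highest counts came without an LSK WT library, where the share of all genes called rose too. The call in LSK Mut against WT was lost without any 1 LSK KO or LSK Mut library. Rrm2 in MPP Mut against WT went from 0.05 to 0.00 without MPP WT replicate 1 and ran up to 0.13, and Mcm7 for LSK against MPP in Mut went from -0.03 to 0.02 without LSK Mut replicate 2 and 0.04 without MPP Mut replicate 1, with a lowest value of -0.09. Over single genes, 1367 values kept their side of the threshold, 166 lost a call, 31 gained one and 3 changed sign; the cause was not tested. Rrm2 was called lower in LSK in each genotype under every alternative run relative to all genes. With 2 technical libraries of 1 pool per group, no value here speaks of the spread between mice, and Gins3 at 3 counts in an LSK WT library is near the floor.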
